A study of Sorghum bicolor with 14 samples.

Results

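In the middle stem internode of sweet sorghum, 286 of the 32726 genes in the drought table stood higher when the soil held about 2% moisture than at both wetter readings. They were chosen on log2(FPKM + 1), where FPKM stands for fragments scaled to gene length and library size. A gene is a member when its value in D3 exceeds the higher of its D1 and D2 values by at least 1, which is close to 2-fold for well expressed genes. At least 1 FPKM was reached in a drought column by 16801 genes, and the members make up 1.7% of these.

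All plants were of the Sorghum bicolor variety CSV24SS, a sweet sorghum grown for the sugar in its stem juice, and RNA came from the middle internode in every group. The drought groups, D1, D2 and D3, were pot plants, 1 to a pot, that received no water from the flag leaf stage on and were harvested at booting. The soil then held about 13%, 7% and 2% moisture. The stage groups grew in a watered, nitrogen-fertilised soil bed and were taken at floral initiation (FI), booting (B), the milky stage (MS) and soft dough (SD). Each of the 7 groups had 2 samples, 14 in all. The authors' table gives 1 FPKM value per gene and group, so no value has a spread between replicates and no difference was tested. Higher and lower therefore describe 2 values, and the sequencing depth behind them is unknown. With no watered pots in the series, the effect of drier soil and that of more days without water cannot be told apart. In bulk tissue, fewer cells of a type and less RNA per cell cannot be told apart.

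Plants short of water build up the hormone abscisic acid, which acts through receptors, phosphatases and kinases on transcription factors. Water-stressed tissues are known to make protective proteins such as dehydrins and to adjust sugars, cell walls and growth. The internode carries water and sugar between leaf and panicle and, in sweet sorghum, stores sucrose as the plant matures. The tables used here do not pair the Sobic identifiers with descriptions. The members are therefore given by identifier and position, their places in these pathways are not analysed here, and the tissue label could not be set against marker genes. Positions are those of the deposited file, and its genome build was not stated there.

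The same rule applied to the other drought columns shows how the D3 departure compares in number. D3 was the highest column by at least 1 for 286 genes and the lowest by at least 1 for 21. D2 was the highest by this margin for 101 genes and the lowest for 285. D1 was the highest for 442 genes and the lowest for 375. Departures of D3 from both other columns were therefore upward far more often than downward, while for D2 the downward ones were the more frequent.

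Most members lay close to the threshold and a few far beyond it. The difference was between 1 and 1.5 for 184 members, between 1.5 and 2 for 62, between 2 and 3 for 26 and at least 3 for 14. Its median was 1.37 and its highest value 8.72. Across members the median level was 2.21 FPKM in D1, 1.75 in D2 and 11.3 in D3, and D3 values ran between 1.07 and 1236 FPKM. In D3, 203 members reached 5 FPKM and 51 reached 50 FPKM. Under 1 FPKM in both D1 and D2 were 80 members, so that these were near the floor of the table at 13% and at 7% moisture. The other 206 had at least 1 FPKM in one of these columns, 162 of them in both.

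**Figure D1:**
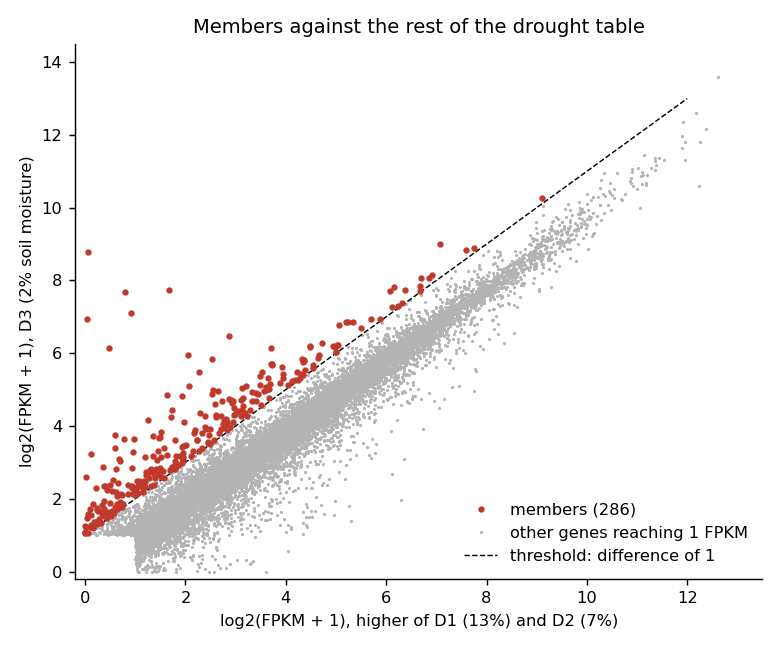
Each point is a gene that reached 1 FPKM in a drought column, and genes below that level are not drawn. The x axis gives the higher of its D1 and D2 values and the y axis its D3 value, both as log2(FPKM + 1). The 286 members are in red and the threshold is dashed. Most members lie just above the line, and a small group with differences up to 8.72 stands far above it.

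Just inside the threshold, among genes with at least 5 FPKM in D3, lay Sobic.009G142200, Sobic.002G184600, Sobic.003G353500 and Sobic.003G250600, with differences between 1.03 and 1.01. Sobic.009G142200 was at 30.9 FPKM in D1, 19.7 in D2 and 63.9 in D3. Just outside lay Sobic.009G215100, Sobic.010G229450, Sobic.007G023300 and Sobic.004G186500, whose differences lay between 0.991 and 0.999. Sobic.010G229450 was at 6.74 FPKM in D1, 8.42 in D2 and 17.8 in D3. The genes on either side of the line are thus alike in these columns, and membership near it rests on a difference in the second decimal.

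The largest differences stood next to each other on chromosome 6. Within positions 4271548 to 4726743 lay 19 rows of the drought table, of which 10 were members, and 7 of the 12 largest differences among members with at least 5 FPKM in D3 came from this stretch. Sobic.006G025900 (4669311 to 4670061) was listed at 0 in D1, at 0.0431 FPKM in D2 and at 439 FPKM in D3. Sobic.006G026000 (4676586 to 4678325) was at 0.0096, 0.0239 and 122 FPKM in D1, D2 and D3. Both were thus close to 0 at 13% and 7% moisture and among the well expressed genes of the table at 2%.

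Further members of the stretch showed the same contrast. Sobic.006G026100 (4682490 to 4684050) was at 2.198 FPKM in D1, 0.795 in D2 and 214 in D3. Sobic.006G024800 (4271548 to 4273337), the first member of the stretch, was at 0.893 FPKM in D1, 0.530 in D2 and 135 in D3. Sobic.006G026300 (4701489 to 4704483) was at 6.28 FPKM in D1, 2.29 in D2 and 88.6 in D3. It was the member of the stretch with the highest levels at the wetter readings.

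A pair of rows covers positions 4498652 to 4561012 and shares that locus, so their separate values are uncertain. One of them, for Sobic.006G025400 together with Sobic.006G025700, was at 0.726 FPKM in D1, 0.181 in D2 and 206 in D3. The other, for Sobic.006G025500 together with Sobic.006G025600, was at 0.383 FPKM in D1, 0.231 in D2 and 70.2 in D3. The remaining members of the stretch were weaker. Sobic.006G026500 (4725936 to 4726743) reached 8.37 FPKM in D3, and Sobic.006G025800 and Sobic.006G026200 were listed at 0 in D1 and D2 and reached 1.09 and 1.13 FPKM in D3.

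The genes between these members did not share the contrast. Of the 9 other rows in the stretch, 4 reached 1 FPKM in a drought column. Sobic.006G025000 was at 31.9 FPKM in D1, 25.8 in D2 and 25.3 in D3. Sobic.006G026250, which lies between 2 members, was at 6.22, 4.19 and 5.02 FPKM, and Sobic.006G025300 at 14.8, 9.88 and 9.79 FPKM. Sobic.006G026400 was abundant in every column, at 326 FPKM in D1, 480 in D2 and 578 in D3. The stretch therefore held expressed genes that fell short of the rule in between its members, and Sobic.006G026400 of these rose at each drier reading.

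Several chromosome 6 members of the stretch were also far apart between the stages, in columns that the rule did not use. The pots were harvested at booting too, so a low B value is not independent of the low D1 and D2 values. The part of this shared stage was not tested. Sobic.006G025900 was at 496, 0.422, 2.78 and 82.5 FPKM in FI, B, MS and SD. Sobic.006G026000 was at 104, 0.236, 5.48 and 35.5 FPKM in these stages, and Sobic.006G026100 at 205, 2.13, 30.8 and 57.4 FPKM. Sobic.006G026300 was at 31.5, 0.974, 7.74 and 3.18 FPKM in FI, B, MS and SD. All 4 were highest at floral initiation and lowest at booting.

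Sobic.006G024800 had its highest stage at soft dough, with 5.98, 1.62, 10.2 and 41.4 FPKM in FI, B, MS and SD. In the stage table the gene models of the shared locus are divided differently. Sobic.006G025400 has a row of its own there, at 15.8, 0.331, 2.21 and 42.0 FPKM in FI, B, MS and SD. A row of Sobic.006G025500, Sobic.006G025600 and Sobic.006G025700 was at 143, 0.184, 1.08 and 14.7 FPKM. Booting was the lowest stage in both rows, as in those above. The weaker members were less alike. Sobic.006G025800 was at 2.28, 0.0616, 0 and 1.72 FPKM in FI, B, MS and SD, lowest at the milky stage. Sobic.006G026500 was at 0.0551, 0, 0.0359 and 4.10 FPKM. Sobic.006G026200 did not exceed 0.0669 FPKM in a stage and showed no dip.

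The D3 levels of several members of the stretch were close to their levels at floral initiation. Sobic.006G025900 was at 439 FPKM in D3 and at 496 in FI, Sobic.006G026000 at 122 in D3 and 104 in FI, and Sobic.006G026100 at 214 in D3 and 205 in FI. Sobic.006G026300 was 88.6 FPKM in D3 against 31.5 in FI, and Sobic.006G024800 was 135 in D3 against 5.98 in FI. These pairs of values come from tables normalised separately and are set side by side only.

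**Figure D2:**
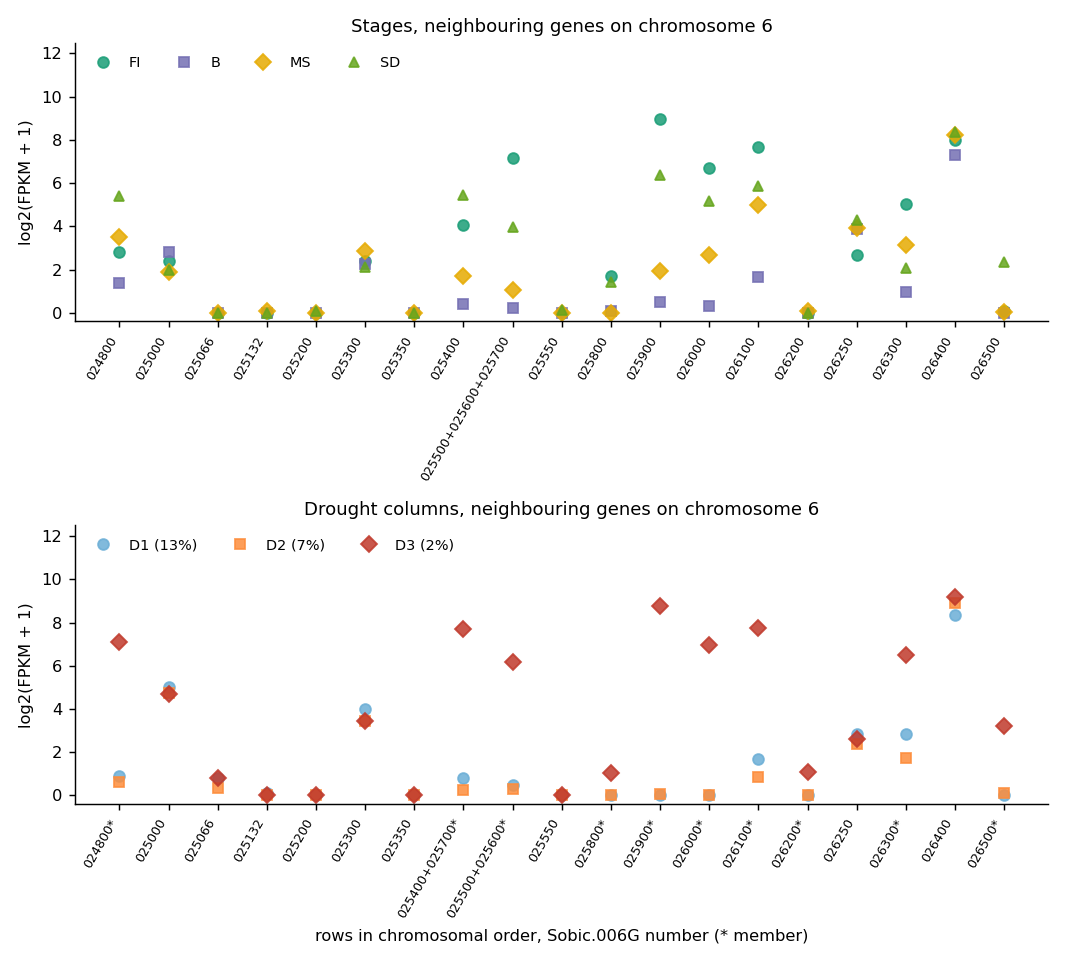
Rows of the chromosome 6 stretch in chromosomal order, with log2(FPKM + 1) in the 4 stages (top) and the 3 drought columns (bottom); numbers are those after Sobic.006G and asterisks in the bottom panel mark members. D3 stands far above D1 and D2 at most members, at 439 FPKM for Sobic.006G025900, but reaches only 1.09 and 1.13 FPKM at Sobic.006G025800 and Sobic.006G026200. Booting is the lowest stage for most of the members.

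Beyond chromosome 6, neighbouring members were found in 5 further runs, where a run is 3 or more members each within 100 kb of the next. Altogether 26 members lay in the 6 runs, 9 of them in the chromosome 6 run, which begins at position 4498652. A run of 4 genes within 20.5 kb of chromosome 7 (8904277 to 8924777) had like values throughout. Sobic.007G077001 was at 21.4 FPKM in D1, 3.73 in D2 and 72.0 in D3. Sobic.007G077100 was at 35.6, 5.81 and 116 FPKM, Sobic.007G077200 at 12.1, 2.39 and 70.1 FPKM and Sobic.007G077300 at 10.2, 1.06 and 40.6 FPKM. All 4 were lowest in D2.

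The chromosome 7 genes also shared an order of stages. Sobic.007G077100 was at 176, 40.2, 98.3 and 237 FPKM in FI, B, MS and SD, and Sobic.007G077300 at 58.9, 7.85, 40.3 and 144 FPKM. In all 4 genes booting was the lowest stage and soft dough the highest. Levels in D3, between 40.6 and 116 FPKM, stayed under those of soft dough, which lay between 140.0 and 237 FPKM.

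On chromosome 9 (3571339 to 3606537), Sobic.009G038000 was at 26.7 FPKM in D1, 32.1 in D2 and 108 in D3. The row of Sobic.009G038200 and Sobic.009G038300 was at 7.78, 4.88 and 32.1 FPKM, and Sobic.009G038401 reached 1.49 FPKM in D3. In the chromosome 4 run (62229759 to 62380103), Sobic.004G279601 was the most abundant in D3, at 12.9 FPKM, and Sobic.004G281400, Sobic.004G280301 and Sobic.004G280900 reached 5.27, 2.01 and 1.98 FPKM. Sobic.004G280900 was far higher in the soil bed, at 80.5, 5.12, 59.95 and 206 FPKM in FI, B, MS and SD.

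The run on chromosome 1 (69064227 to 69197733) held members of unlike pattern. Sobic.001G406300 was at 44.3 FPKM in D1, 12.3 in D2 and 103 in D3. Sobic.001G406800, which shares its locus with another row, was at 0.330, 2.91 and 16.4 FPKM. Sobic.001G407800 reached 1.35 FPKM in D3. On chromosome 3 (67174663 to 67232222), Sobic.003G352800, Sobic.003G353300 and Sobic.003G353500 had 4.99, 1.34 and 5.98 FPKM in D3.

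**Figure D3:**
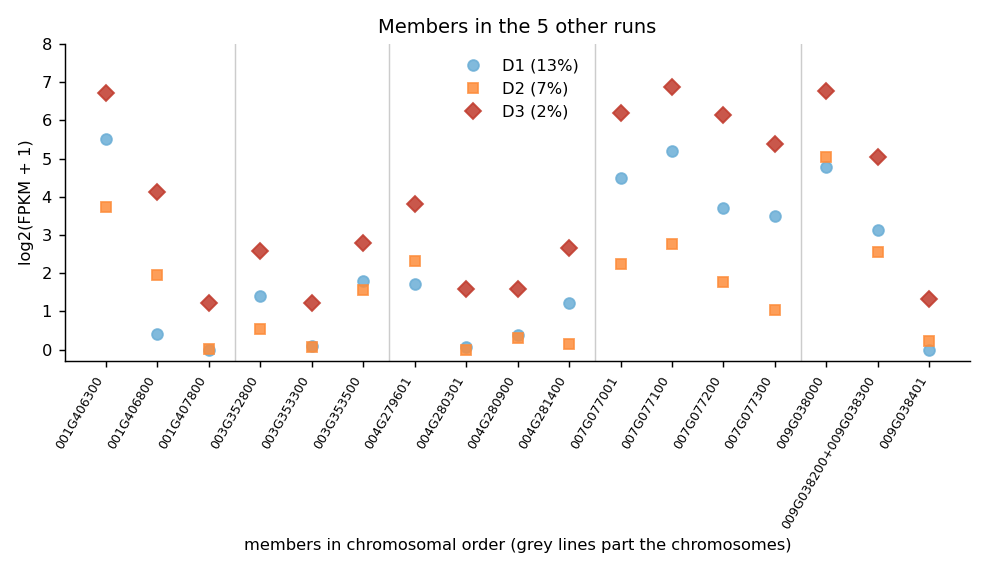
Members of the 5 runs outside chromosome 6, in chromosomal order, with log2(FPKM + 1) in D1, D2 and D3. D3 is the highest point of every member by the rule, and the 4 members on chromosome 7 have D2 as their lowest, between 1.06 and 5.81 FPKM.

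Over all chromosomes, 82 of the 286 members (28.7%) had another member within 100 kb, and 2569 of the 16489 other genes reaching 1 FPKM (15.6%) had a member that near. For all such genes together the share was 15.8%. Members were spread over all 10 chromosomes, as 1.25% of the genes reaching 1 FPKM on chromosome 4 and 1.93% on chromosome 7, with the other 8 in between. Chromosome 6 held 27 members, 17 of them outside the stretch, and its share of 1.83% was within this range. Members lay in short loci, with a median span of 1590.5 bases for those that share no locus, against 4025.5 bases over all such genes reaching 1 FPKM.

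Outside these runs and the chromosome 6 stretch, 5 genes were among the 12 with the largest differences. Their levels in the soil bed were unlike each other. Sobic.007G122500 (chromosome 7, 52650654 to 52651866) was at 3.17 FPKM in D1, 1.07 in D2 and 61.5 in D3, 19.4-fold above the higher of these. In the stages it was at 81.3, 29.4, 140.4 and 452 FPKM in FI, B, MS and SD. The row of Sobic.001G100501 and Sobic.001G100600 (chromosome 1, 7668025 to 7672170) was at 4.73, 1.44 and 56.7 FPKM in the drought columns and at 199, 12.3, 164 and 463 FPKM in the stages. Both were lowest at booting and highest at soft dough.

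Sobic.002G261100 (chromosome 2, 64619675 to 64620505) had the same order of stages. Its levels were 2.10 FPKM in D1, 1.86 in D2 and 27.9 in D3, and 96.8, 9.05, 78.5 and 180.1 FPKM in FI, B, MS and SD. Sobic.002G324000 (chromosome 2, 69488428 to 69490758) was at 0.989 FPKM in D1, 3.85 in D2 and 43.9 in D3 but stayed under 0.05 FPKM at every stage. Sobic.002G109100 (chromosome 2, 13271050 to 13272067) was at 0.393, 0.511 and 12.4 FPKM in the drought columns. It was the one of the 12 largest differences that was highest at booting, with 9.48, 30.0, 1.32 and 0.069 FPKM in FI, B, MS and SD.

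Of the 8 members most abundant in D3, Sobic.006G025900 of the chromosome 6 stretch is described above, and the other 7 had differences between 1.14 and 1.93. Sobic.008G049200 (chromosome 8, 4848186 to 4849152) was at 552 FPKM in D1, 514 in D2 and 1236 in D3, a 2.24-fold difference from the higher value. Sobic.003G235500 (chromosome 3, 57383231 to 57383791) was at 134, 116 and 512 FPKM, and Sobic.001G054800 (chromosome 1, 4083840 to 4085256) at 148, 193 and 459 FPKM. Only Sobic.003G235500 of these was highest at booting among the stages, at 645 FPKM. The row of Sobic.006G078300 and Sobic.006G078400, which shares its locus, was at 215, 172 and 476 FPKM.

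Other abundant members were Sobic.001G482600 (chromosome 1, 75415875 to 75416893), at 119 FPKM in D1, 13.7 in D2 and 285 in D3, and Sobic.003G158600 (chromosome 3, 18206541 to 18206847), at 115, 54.9 and 267 FPKM. Sobic.009G182000 (chromosome 9, 53578169 to 53584309), which shares its locus with another row, was at 85.7, 103 and 267 FPKM. The first was far below its D1 level in D2, and the last was higher there.

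Between the wetter readings most members differed little. D2 lay within 1 of D1 on the log2 scale for 222 members. It was lower by at least 1 for 44 (against 6.25% of all genes) and higher by at least 1 for 20 (against 4.57% of all genes). Both columns entered the rule, so nothing is read from these counts. The median of D2 minus D1 was -0.04 over members and 0.00 over all genes reaching 1 FPKM.

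The lower group contains members with a V-shaped course. Sobic.002G323900 (chromosome 2, 69486473 to 69487382) was at 22.2 FPKM in D1, 1.72 in D2 and 50.4 in D3, and Sobic.007G051800 (chromosome 7, 5299966 to 5302054) at 19.4, 1.77 and 54.4 FPKM. Sobic.009G217500 (chromosome 9, 56181501 to 56182962) was at 11.97, 0.878 and 51.3 FPKM. All 44 were also lower in D2 than in both other columns, a pattern shown by 285 genes (1.7% of all). In the higher group each drier reading had the higher value, again by the rule. Sobic.001G365000 (chromosome 1, 65370090 to 65371434) was at 0.791, 6.38 and 14.7 FPKM and Sobic.006G191800 (chromosome 6, 54592222 to 54592847) at 3.93, 16.4 and 36.5 FPKM. These 5 genes were chosen after their values were seen.

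The 4 stages of the soil bed were not used in choosing the members, but D1 and D2, which were used, come from the same booting stage as B. By name, 277 members were found once in each table, 227 of them with identical coordinates, and 9 were not matched. At least 1 FPKM in a stage was reached by 251 of the 277, and 26 stayed below it throughout. Median levels over the 277 were 8.99, 2.96, 4.73 and 9.35 FPKM in FI, B, MS and SD. Over all 17760 matched genes reaching 1 FPKM in a stage they were 9.88, 9.27, 9.17 and 9.24 FPKM. The 277 include the 26 that stayed below 1 FPKM, whereas all of the 17760 reach it, so these medians come from unlike sets. By them, members were near the typical gene at the first and last stage and lower at booting and the milky stage.

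**Figure D4:**
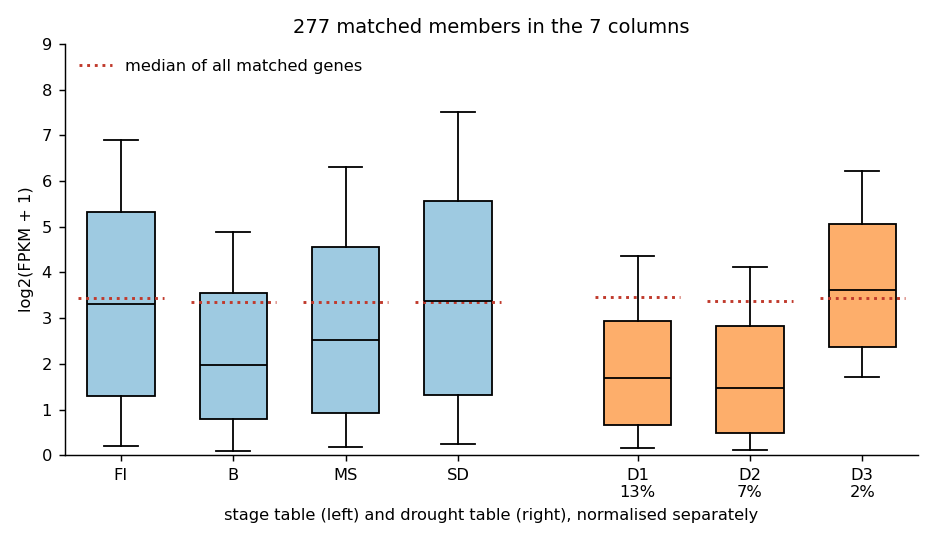
Boxes give the median and quartiles and whiskers the 10th and 90th percentiles of log2(FPKM + 1) over the 277 matched members in each column; dotted lines give the median of all matched genes reaching 1 FPKM in a stage. The members' medians are lowest at booting among the stages, at 2.96 FPKM, and are 2.21, 1.76 and 11.2 FPKM in D1, D2 and D3.

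At booting compared with floral initiation, 154 of the 277 members (55.6%) were lower by at least 1 on the log2 scale, against 17.7% of all genes. Higher by as much were 27 members (9.75%), against 9.12% of all genes. The median difference was -1.19 over members and -0.01 over all genes. Sobic.010G246700 (chromosome 10, 58679151 to 58680848) was at 5.58 FPKM in B and 1099 in FI, and Sobic.001G541300 (chromosome 1, 80423987 to 80425131) was at 1.53 in B and 312 in FI. Sobic.007G213400 (chromosome 7, 64218863 to 64220605) was at 0.868 FPKM in B and 222 in FI. Counts in these comparisons depend on which stage is set against which, and the same B column enters several of them.

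At the milky stage compared with booting, 91 members (32.9%) were higher by at least 1, against 7.63% of all genes, and 28 were lower (10.1%, against 6.49%). In soft dough internodes set against milky-stage ones, 114 members (41.2%) were higher, against 6.52% of all genes, and 9 were lower (3.25%, against 4.24%). Over the whole interval from booting, 142 members were higher at soft dough (51.3%, against 12.1% of all genes) and 30 lower (10.8%, against 9.55%). At soft dough compared with floral initiation, 71 members (25.6%) were higher, against 11.1% of all genes, and 52 (18.8%) were lower, against 16.3%. The members' share of lower values in this last comparison was close to that of all genes.

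**Figure D5:**
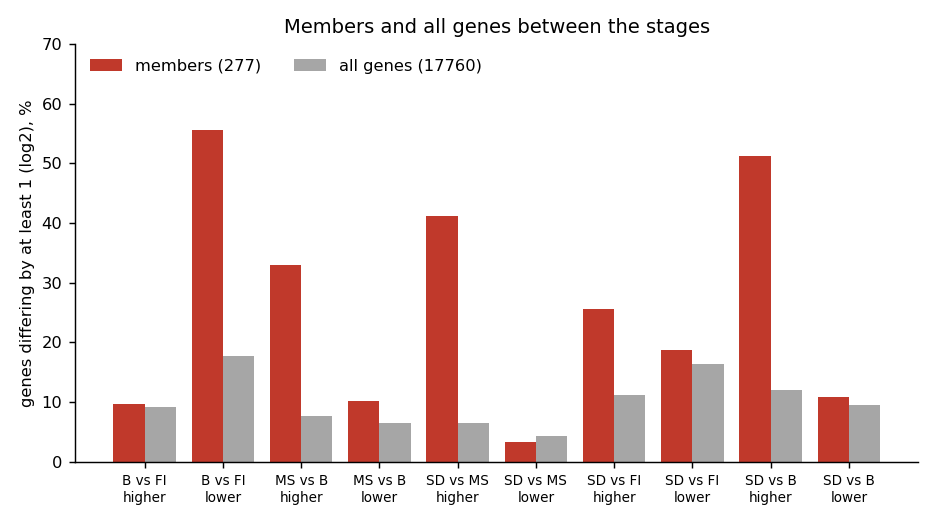
Bars give the share of the 277 matched members (red, left) and of all 17760 matched genes reaching 1 FPKM in a stage (grey, right) that differed by at least 1 in log2(FPKM + 1) between stages, by direction. The widest gaps are at booting lower than floral initiation, 55.6% of members, and at soft dough higher than booting, 51.3%.

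Many members took part in both steps. Booting was lower than both floral initiation and soft dough by at least 1 for 118 of the 277 members (42.6%), against 6.2% of all genes. Among them Sobic.010G177800 (chromosome 10, 51567423 to 51568369) was at 77.5, 0.687, 35.0 and 89.98 FPKM in FI, B, MS and SD. Sobic.006G101100 (chromosome 6, 47163066 to 47163785) was at 210.0, 4.13, 134 and 354 FPKM. In the drought columns the first was at 2.12, 2.82 and 27.3 FPKM, and the second was at 0.619 FPKM in D1, listed at 0 in D2 and at 7.24 in D3. Both were lower in B, D1 and D2 than in D3.

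The pots were harvested at booting too, and D1 and D2, which fixed the level a member had to exceed, held median levels of 2.21 and 1.76 FPKM over the 277, near the 2.96 FPKM of the B column. The part of this shared booting stage in the counts above was not tested. The booting dip was present in members of low and of higher level. It was found in 29 of the 76 matched members under 1 FPKM in D1 and D2 (38.2%) and in 89 of the 201 others (44.3%). Among members with a mean of at least 5 FPKM over the stages it was found in 101 of 168 (60.1%), against 6.8% of all genes above that mean. Of the 38 matched members with a D3 difference of at least 2 it was found in 26 (68.4%). These groups were set by the drought columns that entered the rule, or by the stages that show the dip. Nothing is therefore read from how their shares differ.

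Shares also varied with the course between D1 and D2, a difference that was not tested. Both columns entered the rule, and the groups compared here differ in level as well. At least 1 FPKM in a stage was reached by all 44 members lower in D2. It was reached by 192 of the 214 with D2 within 1 of D1 and by 15 of the 19 with D2 higher. A gene under 1 FPKM at every stage cannot show the dip. Of the 44 members lower in D2 than in D1 by at least 1, booting was under both floral initiation and soft dough in 36 (81.8%). This was so for 77 of the 214 matched members with D2 within 1 of D1 (36.0%) and for 5 of the 19 with D2 higher (26.3%). The pattern was also frequent among genes that are not members. Of 231 matched genes lower in D2 than in D1 and D3 that were not members, 91 (39.4%) had it, so it is not confined to members. These genes too were higher in D3 than in D2 by at least 1, so they do not stand for genes without such a rise. Of 363 matched genes lower in D1 than in D2 and D3 (375 before matching, 2.23% of all genes), 23 (6.34%) had it, which is near the share over all genes.

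Stage ranges were wide among the members. The highest and lowest stage differed by at least 1 for 232 of the 277 (83.8%), against 48.5% of all genes. In 119 of these 232 soft dough was the highest stage (51.3%, against 24.7% of all genes with such a range). Floral initiation was the highest stage in 77 (33.2%, against 41.8% of all such genes), booting in 30 (12.9%, against 19.6%) and the milky stage in 6 (2.59%, against 13.8%), all 3 shares below those over all genes. Booting was the lowest stage in 141 (60.8%, against 31.2%).

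A single stage stood above all others by at least 1 for a smaller number. Soft dough did so in 47 members (17.0%, against 2.42% of all genes) and floral initiation in 38 (13.7%, against 9.22%). Sobic.002G225700 (chromosome 2, 61785484 to 61786369) was of the first kind, at 3, 0.770, 26.3 and 151 FPKM in FI, B, MS and SD, and at 0.280, 0.0265 and 6.33 FPKM in D1, D2 and D3. Booting stood above the rest in 12 members (4.33%, against 2.6%) and the milky stage in 4 (1.44%, against 0.524%).

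The booting-high members went against the general course. Sobic.008G162600 (chromosome 8, 59632341 to 59636299) was at 22.2 FPKM in B and under 0.1 FPKM in the other stages, and at 69.9, 25.2 and 227 FPKM in D1, D2 and D3. Sobic.005G046700 (chromosome 5, 4444213 to 4445054) was at 13.8, 261, 57.2 and 59.5 FPKM in FI, B, MS and SD, and at 29.5, 18.5 and 72.5 FPKM in the drought columns. The row of Sobic.006G241350 and Sobic.006G241400 (chromosome 6, 58216826 to 58222370) was at 40.9, 205, 28.6 and 10.9 FPKM in the stages and at 79.9, 102 and 209.6 FPKM in the drought columns. Even the D3 level of Sobic.005G046700 was below its level in the watered booting plants.

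Of the few members highest at the milky stage, Sobic.001G412700 (chromosome 1, 69506269 to 69508628) was at 2.26, 24.3, 159 and 30.7 FPKM in FI, B, MS and SD. Sobic.002G202700 (chromosome 2, 59258883 to 59260622) was at 22.4, 10.2, 84.9 and 26.1 FPKM. Sobic.004G171000 and Sobic.010G063100 peaked there at 7.31 and 5.73 FPKM and were higher in D3, at 24.7 and 23.2 FPKM.

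Set beside the watered booting plants, the members in D1 and D2 were more often lower than higher. Tables, pots and watering differ here and cannot be told apart, and the drought columns chose the members, so this is a description. In D1, 34 members were higher than in B by at least 1 (11.3% of all genes were) and 61 lower (9.05% of all genes were). In D2, 44 were higher (11.6% of all genes) and 84 lower (10.9% of all genes). In D3, 184 were higher (12.4% of all genes) and 14 lower (9.5% of all genes).

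D3 chose the members, so nothing is read from its counts against the stages. It exceeded every stage by at least 1 for 76 of the 277 matched members (5.29% of all genes did so). It was below the highest stage by at least 1 for 102 (30.4% of all genes were). For the other 99 it lay within 1 of the highest stage, a count given without a share over all genes. Of the members above every stage, chosen after their values were seen, Sobic.005G151700 (chromosome 5, 62172020 to 62173744) was at 9.84 FPKM in D1, 8.07 in D2 and 28.6 in D3. It did not exceed 0.593 FPKM in a stage. Sobic.002G367000 (chromosome 2, 72661801 to 72663352) was at 4.47, 10.5 and 43.6 FPKM in the drought columns and at most 1.64 FPKM in a stage. Sobic.008G139900 (chromosome 8, 57066239 to 57069649) was at 18.4, 18.8 and 41.9 FPKM, against at most 2.41 FPKM in a stage. All 3 genes were above 4 FPKM in every drought column, while in the stages only Sobic.005G151700 stayed under 1 FPKM throughout.

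At the other end, members were higher in D3 than in D1 and D2 but far under their highest stage. Sobic.001G012400 (chromosome 1, 1152500 to 1153979) was at 0.314 FPKM in D1, 0.409 in D2 and 4.17 in D3, and at 223, 332, 273 and 557 FPKM in FI, B, MS and SD. Sobic.003G102200 (chromosome 3, 9069871 to 9073990) was at 0.965, 0.143 and 3.59 FPKM in the drought columns and at 101, 10.6, 84.8 and 295 FPKM in the stages. Sobic.001G259600 (chromosome 1, 31327154 to 31328316) was at 0.292, 0.0164 and 2.82 FPKM in the drought columns and at 85.2, 3.78, 67.1 and 163 FPKM in the stages. Only for Sobic.001G012400 of these 3, which were chosen after their values were seen, was D3 far below every stage, and Sobic.001G259600 was nearly as low at booting as in D3.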

How the data were processed

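Total RNA from 14 samples was sequenced after strand-specific library preparation, per the labels. The authors deposited FPKM values, 1 per gene and group, in 2 tables side by side, per the file headers. The way 2 samples became 1 value, the genome build and the sequencing depth are not given in the sources used here, so no interval or floor was set. Per the submitters' processing notes, the tools were HISAT2 2.0.5, Bowtie2 2.2.9, Cuffdiff and cutadapt 1.8.1, with no role stated. The tables were taken as normalised separately. The number of unused columns of per-sample values was 0.

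From these values, log2(FPKM + 1) was computed, the rule applied to all 32726 rows, and members matched by name to the 34755 rows of the stage table. Of the members, 29 rows hold several gene models or share a locus, and their values are uncertain. A difference counted at 1 or more (2-fold on that scale), and the background was all matched genes reaching 1 FPKM in a stage. Members and lists were chosen with earlier results of these data known. Named members are the 12 with the largest difference among those with at least 5 FPKM in D3, the 8 highest in D3, those in runs of 3 or more, 4 on either side of the threshold and up to 4 per highest stage. Others were chosen after their values were seen. The 26 planned gene lists and the promoter search needed descriptions or sequences that are not used here, and have no members. Alternatives were other pseudocounts, filters, thresholds, windows and scalings. Computations ran in Python 3.11.15 with numpy 2.4.6, pandas 2.3.3 and, for plots, matplotlib 3.10.9.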

Additional observations from a re-analysis of the deposited data

How the results depend on the processing

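No paired analysis was possible because the columns hold 1 value per group and carry no replicate numbers, and for the same reason no replicate could be left out. The planned promoter comparison was not run. The number of genes meeting the rule was 759 with a pseudocount of 0.1 FPKM, which includes all 286, 123 with one of 5 FPKM, all of them among the 286, and 40 at a threshold of 2. With a pseudocount of 0.1, 43 members were lower at the milky stage than at booting and 19 lower at soft dough than at the milky stage. With one of 5, 15 were higher at booting than at floral initiation, 14 lower at the milky stage than at booting and 3 lower at soft dough than at the milky stage. With it, soft dough was higher than floral initiation for 47 and lower for 31. Among members with a mean of at least 5 FPKM over the stages, 14 were higher at booting than at floral initiation and 18 lower at the milky stage than at booting. Another member lay within 20 kb of 40 members, and within 100 kb of 49 when only members with at least 5 FPKM in D3 were used. The share of other genes with a member that near is not given for these settings, so nothing is read from these counts. The other 52 values, those under median ratio rescaling and quantile normalization among them, stayed within 1.5 times. Some of these could not move. A gene under 1 FPKM at every stage cannot differ by 1, so dropping that filter left the stage counts unchanged. The rule itself needs at least 1 FPKM in D3, so asking for that level kept all 286. With 1 value per group of unknown depth, members of low level are the least certain.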

Other observations

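The neighbouring members Sobic.002G323900 and Sobic.002G324000 on chromosome 2 had opposite courses between D1 and D2 and unlike levels in the stages. Sobic.002G323900 was at 225, 42.5, 142 and 362 FPKM in FI, B, MS and SD, and at 22.2, 1.72 and 50.4 FPKM in D1, D2 and D3. Sobic.002G324000 stayed under 0.05 FPKM in the stages and was at 0.989, 3.85 and 43.9 FPKM in D1, D2 and D3. Sobic.001G406800 on chromosome 1 had a course like that of Sobic.002G324000, with 0.330, 2.91 and 16.4 FPKM in the drought columns and under 0.1 FPKM at every stage. It shares its locus with another row, so its values are uncertain.

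A further set of members, chosen after their values were seen, had their booting dip at high levels. Sobic.001G079500 (chromosome 1, 6104058 to 6105842) was at 393, 169, 328 and 948 FPKM in FI, B, MS and SD, and at 78.6, 10.6 and 165 FPKM in D1, D2 and D3. Sobic.010G023200 (chromosome 10, 1887482 to 1888040) was at 150.4, 51.5, 109 and 253 FPKM in the stages and at 68.0, 11.9 and 153 FPKM in the drought columns. Sobic.009G120800 (chromosome 9, 47126420 to 47127618) was at 179, 66.1, 108 and 482 FPKM in the stages and at 51.2, 11.6 and 121 FPKM in the drought columns. All 3 were lowest in D2 among the drought columns.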
